A study of Mus musculus with 7 samples.

Results

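Lamina-associated domains (LADs) of intermediate length on the mouse autosomes are described here. They were selected on their measured length: every domain of the deposited list on chromosomes 1 to 19 that was at least 500 kb and under 1.5 Mb long, as end minus start. The rule took 306 of the 1437 domains in the list, and 306 of the 1128 on autosomes. Of the other autosomal domains, 310 were under 200 kb, 235 were 200 to 500 kb and 277 were 1.5 Mb or longer, and 309 domains lay on the X and Y chromosomes. The study profiled wild-type mouse embryonic fibroblast lines, named iMEF in the labels and derived independently from a single mouse colony, by CUT&RUN. In this assay an antibody on permeabilised cells or nuclei tethers micrococcal nuclease, which cuts out the DNA next to the target. There were 7 libraries: 2 for Lamin B1 from whole cells, 2 for the IgG control, 1 for H3K9me2 with each of 2 antibodies and 1 for H3K14ac, the histone marks from extracted nuclei. Only the Lamin B1 domains enter the results. Wild type and merged are words in the name of the list, and which line gave which library is not stated. The list holds positions alone, with no signal and no values of single libraries, so read depth is unknown and no domain has an error between replicates.

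The nuclear lamina is a meshwork of lamin proteins under the inner nuclear membrane. LADs are the stretches of chromatin that touch it, and are known as gene-poor, late-replicating and mostly silent, with tissue-specific genes of other lineages and large gene clusters in them. Lamin B1 stays anchored in the membrane through its lipid tail and is widely used to map these contacts.

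Sequences are shown for the 2 kinds of element that the results on these domains return to, promoters and microRNAs. The first set is the 250 bases before the annotated start of 5 genes, taken from the RefSeq promoter table, whose assembly, GRCm38.p6, has the coordinates of mm10. Capitals mark CG dinucleotides, which read the same on both strands and are dense in CpG-island promoters. Ctnna3 encodes an alpha-catenin and Marchf1 a membrane-bound ubiquitin ligase, and each of these genes contains a whole domain while its first start site lies outside it. Olfr365 (an odorant receptor), Vmn1r212 (a vomeronasal receptor) and Cyp2c39 (a cytochrome P450) start inside a domain. The windows are chr10:63429848-63430097 (plus strand) for Ctnna3, chr8:65617790-65618039 (plus strand) for Marchf1, chr2:37200993-37201242 (plus strand) for Olfr365, chr13:22884162-22884411 (minus strand) for Vmn1r212 and chr19:39347096-39347345 (plus strand) for Cyp2c39. Each is read 5′ to 3′ in the direction of transcription.
Ctnna3: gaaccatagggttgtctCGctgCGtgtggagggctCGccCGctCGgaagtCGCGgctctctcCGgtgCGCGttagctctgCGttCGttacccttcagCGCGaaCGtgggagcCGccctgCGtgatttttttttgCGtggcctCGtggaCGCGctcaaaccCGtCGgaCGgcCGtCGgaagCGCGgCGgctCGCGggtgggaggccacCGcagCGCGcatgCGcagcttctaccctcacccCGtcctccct
Marchf1: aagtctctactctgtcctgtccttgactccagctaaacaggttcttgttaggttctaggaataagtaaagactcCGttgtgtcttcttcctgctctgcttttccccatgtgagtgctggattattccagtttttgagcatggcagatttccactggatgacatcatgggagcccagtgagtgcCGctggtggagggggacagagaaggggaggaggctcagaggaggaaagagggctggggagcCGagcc
Olfr365: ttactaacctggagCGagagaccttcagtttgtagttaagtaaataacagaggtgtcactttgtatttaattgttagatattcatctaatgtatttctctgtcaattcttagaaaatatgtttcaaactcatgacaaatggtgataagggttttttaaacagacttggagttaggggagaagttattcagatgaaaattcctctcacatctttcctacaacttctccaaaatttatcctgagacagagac
Vmn1r212: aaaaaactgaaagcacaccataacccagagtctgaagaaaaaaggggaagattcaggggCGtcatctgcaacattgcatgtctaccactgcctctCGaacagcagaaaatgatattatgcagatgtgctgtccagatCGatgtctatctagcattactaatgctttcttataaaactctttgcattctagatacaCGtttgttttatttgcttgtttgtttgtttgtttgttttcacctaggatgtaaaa
Cyp2c39: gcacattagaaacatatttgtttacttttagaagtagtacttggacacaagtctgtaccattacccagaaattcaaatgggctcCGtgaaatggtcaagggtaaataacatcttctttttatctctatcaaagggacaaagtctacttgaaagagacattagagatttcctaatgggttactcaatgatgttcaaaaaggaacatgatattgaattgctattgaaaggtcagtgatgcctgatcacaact
The Ctnna3 window held 36 CG dinucleotides and was 67.6% G and C. The Marchf1 window held 3, Vmn1r212 held 4, and Olfr365 and Cyp2c39 held 1 each. Of the other long genes that contain or fill a domain, Magi2 had 29, Anks1b 20 and Asic2 9 CG dinucleotides before their first start in the promoter table. These windows are few and need not stand for starts inside and outside in general. Long genes that take up 50% or more of a domain are described below. Among them the median ratio of observed to expected CG was 0.536 for genes that start outside and 0.746 for those that start inside. That ratio was averaged over all annotated start windows of a gene, and for Anks1b, Marchf1 and Asic2 some of these lie inside the domain. For Ctnna3 it was 0.573, against 1.16 in the window of its first start alone. The medians therefore do not compare first starts.

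The second set is mature microRNAs of 3 domains from the RefSeq microRNA table, shown because these domains hold neighbouring microRNA genes, some with a shared seed. Capitals mark the seed, bases 2 to 8, by which a microRNA pairs with its targets. The first 3 lie on chromosome 16 in a domain without a protein-coding gene, the next 2 on chromosome 1 in the domain of the leukocyte gene Ptprc, and the last 8 in the domain of the imprinted gene Ndn on chromosome 7.
miR-99a-5p: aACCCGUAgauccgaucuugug
let-7c-5p: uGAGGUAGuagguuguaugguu
miR-125b-5p: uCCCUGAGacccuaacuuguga
miR-181a-5p: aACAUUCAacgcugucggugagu
miR-181b-5p: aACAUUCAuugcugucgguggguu
miR-344-5p: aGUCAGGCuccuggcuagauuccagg
miR-344b-5p: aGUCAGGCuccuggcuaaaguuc
miR-344c-5p: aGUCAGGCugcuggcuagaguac
miR-344d-1-5p: aGUCAGGCugcuggcuauacacca
miR-344d-3-5p: aGUCAGGCuagugguuauacucc
miR-344g-5p: aGUCAGGCuccuggcaggagu
miR-344d-3p: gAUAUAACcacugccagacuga
miR-344e-3p: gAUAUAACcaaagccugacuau
The 2 members of the miR-181 family shared the seed ACAUUCA. Of the 13 Mir344 genes, 7 carried a 5p arm with the seed GUCAGGC and 4 a 3p arm with the seed AUAUAAC. The chromosome 16 microRNAs had 3 different 5p seeds.

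The 306 domains covered 275.1 Mb, which was 23.4% of the bases in autosomal LADs and 11.6% of the span of the autosomes between their first and last domain. Their lengths ran from 507.498 to 1490 kb, with a median of 850.0 kb and quartiles of 662 and 1101 kb. Length chose the domains, so these values are a description. Just inside the lower limit were a domain of 507.498 kb on chromosome 7 (chr7:131027213-131534710), which held 10 protein-coding genes including Dmbt1, a mucosal defence glycoprotein, and one of 507.499 kb on chromosome 15 (chr15:31663582-32171080) with none. Just outside it were domains of 499.998 kb on chromosome 5, with no gene, and of 499.999 kb on chromosome 12, with Immp2l and Lrrn3. At the upper limit, domains of 1475 kb (chr5:48452159-49927154, with Kcnip4) and 1490 kb (chr2:77374667-78864661, with Zfp385b, Cwc22 and Gm14461) were the nearest inside, and a domain on chromosome 1 (chr1:83154738-84629733, with Dner, Pid1, Sphkap and Daw1) tied with the first of these. The nearest outside were 1502.49 kb on chromosome 6, with the speech-associated forkhead gene Foxp2, and 1502.5 kb on chromosome 18.

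Every autosome had such domains. The number ran from 9 on chromosomes 18 and 19 to 22 on chromosomes 2 and 3 and averaged 16.1 ± 4.34 (SD, n = 19 chromosomes). Per 10 Mb of span it was 1.32 ± 0.266, lowest on chromosome 1 at 0.935 and highest on chromosome 19 at 1.90. Chromosome 19 also had the highest share of its span in these domains, 18.9%, and chromosome 12 the lowest, 8.68%. Their share of all LADs of a chromosome ran from 19.1% on chromosome 18 to 44.8% on chromosome 15. By position of the midpoint, 109 lay in the centromere-side part of the span, 103 in the middle part and 94 in the distal part, with the span of each chromosome cut into 3 equal parts.

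**Figure D1:**
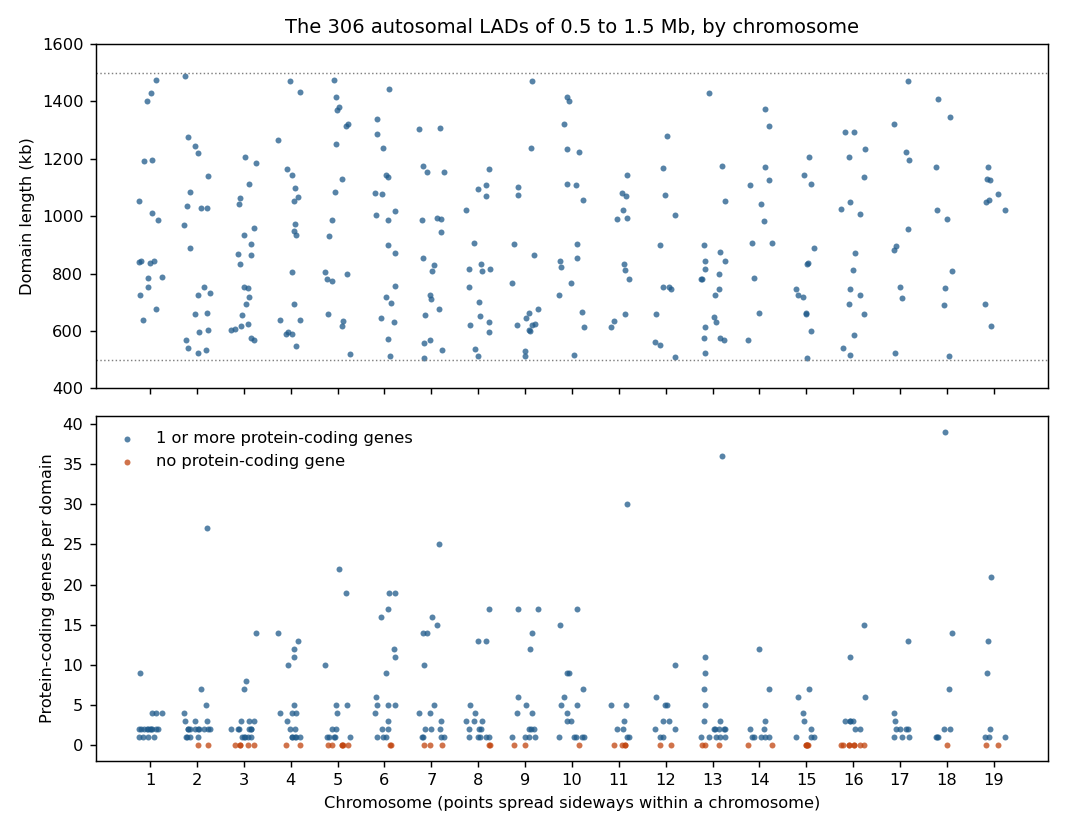
Each point is 1 of the 306 domains, set against its chromosome (x axis). The upper panel gives length in kb, with dotted lines at the 500 kb and 1.5 Mb limits, and the lower panel the number of protein-coding genes with their midpoint inside, where most domains hold few genes, 52 hold none and the highest point is the domain of 39 genes on chromosome 18.

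Gaps next to these domains had a median length of 345.0 kb (quartiles 140.0 and 1285 kb, 603 borders with a gap). Of these gaps 43.3% were 250 kb or shorter and 29.2% were 1 Mb or longer. Both gaps were short, at 250 kb or less, for 67 domains, and both were 1 Mb or more for 31. The next domain was under 200 kb at 154 borders, 200 to 500 kb at 115, another of 0.5 to 1.5 Mb at 188 and longer at 146. Domains of 1.5 Mb or more had nearly the same median gap, 341.2 kb. Gaps come from the same list as the lengths, so they carry no test.

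The domains held the midpoints of 1270 protein-coding genes, 6.15% of the 20665 on autosomes. LADs of 1.5 Mb or more held 2908, 14.1%. Gene density in the domains of 0.5 to 1.5 Mb averaged 4.61 ± 1.67 genes per Mb (SD, n = 19 chromosomes), with a lowest value of 2.35 on chromosome 15, a median of 4.61 and a highest of 7.70 on chromosome 18. The gaps beside them, taken up to 250 kb from each border, averaged 12.1 ± 3.21 genes per Mb, with a lowest value of 6.97 on chromosome 8, a median of 12.2 and a highest of 18.8 on chromosome 7. Density was lower in the domains than in their own gaps on 19 of 19 chromosomes, although the ranges overlapped across chromosomes. The mean difference was -7.51 genes per Mb (SD 2.54, exact two-sided sign-flip permutation test over 19 chromosomes, p = 3.81e-06, the smallest this test can give, adjusted p = 1.91e-05 over 5 tests). Chromosomes are parts of a single list and not replicates, so each of these tests describes how evenly a difference ran along the genome and not its spread between cultures.

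The comparison with longer LADs gave different calls under different settings. LADs of 1.5 Mb or more averaged 3.54 ± 2.26 genes per Mb, with 0.988 on chromosome 15, a median of 2.97 and 10.0 on chromosome 7. The domains of 0.5 to 1.5 Mb were denser on 14 of 19 chromosomes, by 1.06 genes per Mb (SD 2.47), which did not pass the exact sign-flip permutation test (p = 0.076, adjusted p = 0.18). Olfactory and vomeronasal receptor genes made up 34.6% of the genes in the longer LADs and 17.2% in these domains. Without these receptor genes density was 3.89 ± 1.61 against 2.27 ± 0.839 per Mb, higher on 16 of 19 chromosomes, and the difference of 1.62 (SD 1.94) passed the exact test at p = 0.000984 (adjusted p = 0.00246). No other clustered family was left out. Clustered protocadherins and cytochromes P450, with more genes in these domains, stayed in, as did defensins and synaptic adhesion genes, with more in longer LADs. On chromosome 18 density was 7.70 against 1.34 per Mb, with 39 genes in the protocadherin domain alone. When all annotated genes were counted the difference was 3.49 per Mb (exact test, adjusted p = 0.00679). With limits of 400 kb and 1.2 Mb it was 1.57 (exact test, adjusted p = 0.0240). Compared over the outer 250 kb of both classes alone it was 0.53 (SD 2.82, exact test p = 0.43), higher on 11 of 19.

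LADs of 200 to 500 kb had 4.73 ± 2.08 genes per Mb, from 1.82 on chromosome 11 to 9.23 on chromosome 19. The domains of 0.5 to 1.5 Mb differed from them by -0.12 per Mb (SD 2.57), lower on 10 of 19 chromosomes, and the exact sign-flip permutation test did not pass (p = 0.84, adjusted p = 0.84). The sign of this small difference changed with how genes were placed.

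**Figure D2:**
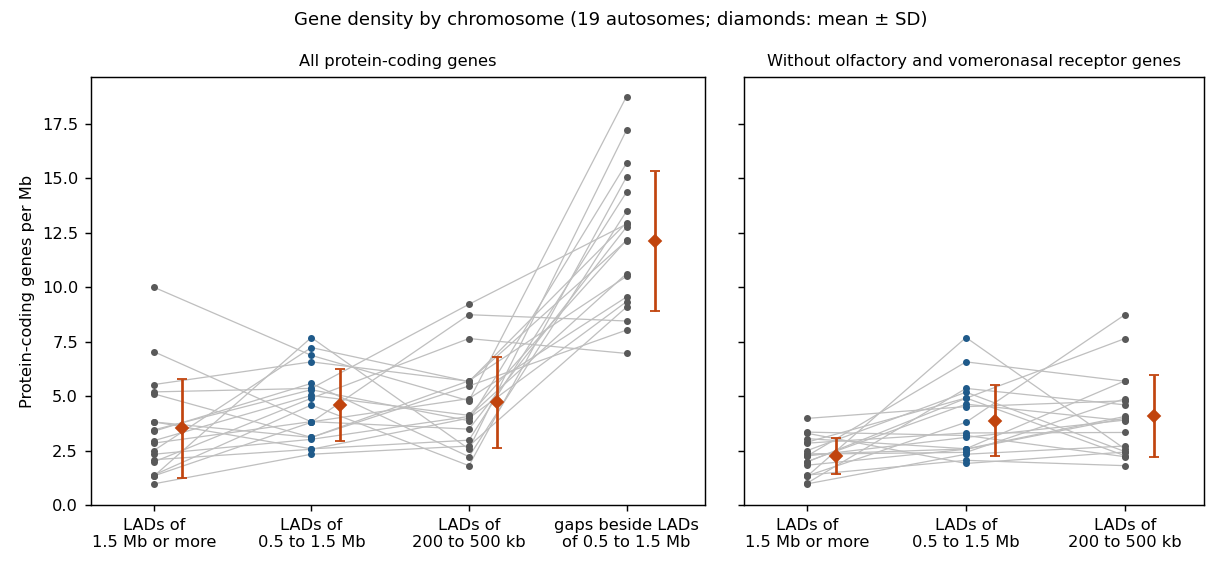
Protein-coding genes per Mb (y axis) on each of the 19 autosomes (points, joined by chromosome) in 3 length classes of LAD and in the gaps of up to 250 kb beside the domains of 0.5 to 1.5 Mb, with mean ± SD as diamonds. On every chromosome the point for the gaps lies above that for the domains of 0.5 to 1.5 Mb. The right panel leaves out olfactory and vomeronasal receptor genes, and there the longer LADs drop to 2.27 ± 0.839 genes per Mb against 3.89 ± 1.61 in those domains.

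Gene density was lower in the 50 kb just outside the border than farther out, and lower again inside. In windows of 50 kb outside the domains density was 11.9 to 14.7 genes per Mb from 50 to 250 kb away, with no steady trend, and 9.49 ± 3.31 in the 50 kb next to the border (mean ± SD over 19 chromosomes). Windows were kept only where they fitted in the gap, 603 next to the border and 342 at 200 to 250 kb. The far windows therefore come from longer gaps and can lie beside the next domain. Inside the domains density was 5.74 ± 3.00 in the first 50 kb, 6.03 in the next, and 4.66 to 5.05 from 100 to 250 kb. The outer 250 kb on either side held 5.29 ± 2.37 genes per Mb and the remaining core 3.79 ± 1.31. Longer LADs had 4.76 ± 2.19 in their outer 250 kb and 3.27 ± 2.33 in the core, so both classes were poorest in genes away from their borders. Among the 306 domains, cut at the quartiles of length, the shortest 79 (507.498 to 662 kb) held 5.66 genes per Mb, the next 74 and 76 held 4.97 and 4.42, and the longest 77 (1102.5 to 1490 kb) 4.05.

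**Figure D3:**
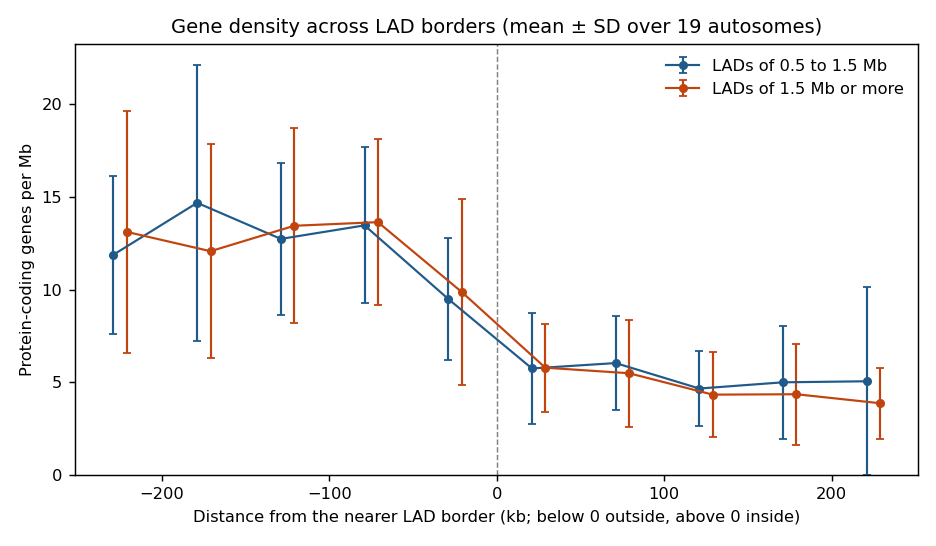
Protein-coding genes per Mb (y axis) in 50 kb windows for LADs of 0.5 to 1.5 Mb and of 1.5 Mb or more. The x axis is distance in kb from the domain's own border, negative outside and positive inside. Outside windows were kept wherever they fitted in the gap, so a far window can lie next to another LAD. Points are means and bars SD over 19 autosomes. Both lines fall across the border, from 9.49 to 5.74 genes per Mb in the domains of 0.5 to 1.5 Mb.

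Genes were spread unevenly among the domains. The median domain held 2 protein-coding genes (quartiles 1 and 5), 52 domains (17.0%, exact 95% interval 12.96% to 21.7%, counting error only) held none, and 70 held 1. A group of 43 domains with 10 or more genes held 700 of the 1270 genes, 55.1%. Gene-free domains were less frequent among longer LADs (7.22%) and more frequent at 200 to 500 kb (36.2%). Length defines these classes and the gene-free share also fell with length within the 306 domains, from 26.6% of the shortest 79 to 7.79% of the longest 77, so the order is a description. Within the 306 domains the rank correlation of length with gene number was weak (Spearman's rho 0.14, a description over domains of a single list).

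In each of the 5 domains with the most genes, most genes belonged to a single family. The highest count, 39 genes, was at chr18:36853901-37603897 (750.0 kb), where 36 were clustered protocadherins of the alpha and beta groups, cell-surface adhesion proteins that give neurons individual identities. Next was chr13:22073272-23248268 (1175 kb) with 36 genes, of which 35 were Vmn1r vomeronasal receptors and which also held 46 pseudogenes. A domain at chr11:73335442-74330438 held 30 genes, 27 of them olfactory receptors, and the domain of Olfr365 at chr2:36302297-37329792 held 27, all olfactory receptors. The fifth, chr7:140127184-140804681, had 25 genes with 19 olfactory receptors and Cyp2e1, the ethanol-oxidising cytochrome P450 of the liver. Protein-coding genes covered 2.89% of the chromosome 13 domain, 4.34% of the chromosome 2 domain, 12.5% of the chromosome 11 domain and 25.1% of the chromosome 7 domain, against 89.8% of the protocadherin domain, where the single 889 kb gene model Gm37013, which is not among the 36 protocadherins, covered 86.8%.

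A set of 40 domains had 50% or more of their bases in a single gene model, each a different one, with gene lengths from 327 to 1998 kb (median 805 kb). The protocadherin domain was among them through Gm37013. Of these, 4 lay wholly inside the gene. Ctnna3 (gene length 1574 kb) held the domain at chr10:64098378-64763375 (665 kb), with its start 668 kb outside. Magi2, a synaptic scaffold gene of 1485 kb, held chr5:19929750-20449747 (520.0 kb), with the 5′ end of its gene model 710.4 kb outside and its first start, as the promoter table gives it, 703 kb outside. Asic2, an acid-sensing ion channel gene of 1088 kb, held chr11:80957918-81947914 (990.0 kb), with its start 20.5 kb outside, and Marchf1 (855 kb) held chr8:65810500-66407997 (597 kb), with its start 192 kb outside. Anks1b, which encodes a postsynaptic protein, filled 98.2% of chr10:89885796-90993292 (1107.5 kb) and began 12.9 kb outside by its gene model and 12.3 kb outside by its first start in the promoter table. Alternative starts did not all share this place: the 3 annotated start windows of Ctnna3 and both of Magi2 were outside, whereas 4 of the 5 of Anks1b, 1 of the 3 of Marchf1 and 1 of the 2 of Asic2 were inside.

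Starts outside were the exception in the wider set. Strand was known for 28 of the 40 genes, and 22 of them began inside their domain, among them Kcnip4 (a potassium-channel accessory protein, 72.7% of its domain in the gene), Astn2 (69.5%), Cacna2d3 (a calcium-channel subunit, 76.6%), Trpm3 (73.8%) and Ctnnd2 (73.5%). The 6 that began outside were the 5 genes above and Dock2 (54.7% of its domain, start 221 kb outside). Over all borders, 201 of 612 (32.8%) fell inside a protein-coding gene, close to the 192 of 554 (34.7%) of longer LADs. Of 161 such gene and border pairs with a known strand, 89 (55.3%) had the gene start on the outside, against 84 of 153 (54.9%) in longer LADs.

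**Figure D4:**
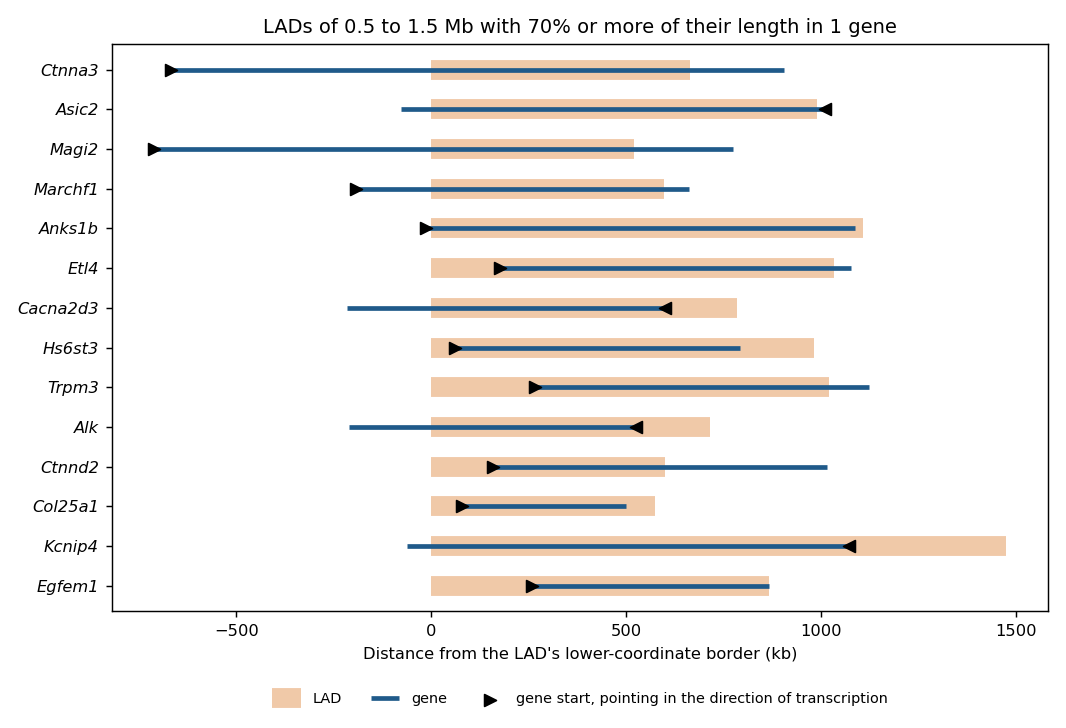
The 14 domains with 70% or more of their length in 1 gene of known strand, drawn by distance in kb from the border with the lower coordinate (x axis). Wide bars are domains, thin lines genes and arrowheads gene starts with the direction of transcription. The upper 5 genes, Ctnna3 to Anks1b, start outside their domain and the other 9 inside.

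The median protein-coding gene in the domains was 17.3 kb long, against 6.51 kb in longer LADs and 18.9 kb outside LADs. Without olfactory and vomeronasal receptor genes the median was 23.7 kb in the domains and 19.9 kb in longer LADs. Genes of 500 kb or more numbered 38 in these domains (2.99% of the genes there), 107 in longer LADs (3.68%) and 59 outside LADs (0.370%), of 216 on autosomes. The mean over chromosomes of the median log2 gene length (in bp) was 14.01 ± 1.35 against 13.03 ± 2.22 in longer LADs (SD, n = 19 chromosomes). The difference of 0.98 (SD 2.54, higher on 12 of 19) did not pass the exact sign-flip permutation test (p = 0.11, adjusted p = 0.18). It became 0.53 without receptor genes (exact test, adjusted p = 0.32) and -0.08 with limits of 600 kb and 1.8 Mb (exact test, adjusted p = 0.91).

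Promoters in the domains were poor in CG. The ratio of observed to expected CG was taken in the 300-base promoter windows, 250 before and 50 after a start, and averaged over the windows of each gene. It had a median of 0.237 for genes in the domains, 0.173 in longer LADs and 0.682 outside LADs. A ratio of 0.6 or more, a usual mark of a CpG island, was found for 18.8% of genes in the domains, 14.03% in longer LADs and 58.5% outside. Counting the CG letters in the 250 bases before each start, a start site inside a domain had a median of 2 (quartiles 1 and 8, 1137 windows), and a start outside LADs had 13 (quartiles 5 and 21). At least 1 CG was in 82.9% of the windows inside, 97.6% outside and 93.7% of all 20085 autosomal windows. The Ctnna3 window shown above lies above the upper quartile outside and those of Olfr365 and Cyp2c39 at the lower quartile inside. By chromosome the mean ratio was 0.334 ± 0.0738 in the domains and 0.311 ± 0.0957 in longer LADs. The difference of 0.0228 (SD 0.0904, higher on 12 of 18 chromosomes) did not pass the exact sign-flip permutation test (p = 0.30, adjusted p = 0.37). On those 18 chromosomes 82.2% of the genes in the domains had a promoter entry, and without receptor genes the difference was -0.00449 (exact test, adjusted p = 0.88).

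Gene families were read against the 6.15% of autosomal protein-coding genes found in the domains, as counts with no test, because family members lie side by side and a single domain can hold a whole cluster. Cytochromes P450, haem enzymes that oxidise drugs, steroids and fatty acids mainly in liver, had 41 of 99 genes (41.4%) in the domains, 11 in longer LADs and 47 outside. They came from 5 domains. The domain at chr19:39030967-40200963 (1170 kb) held 13 genes, all Cyp2c, including Cyp2c39, Cyp2c38, Cyp2c66 and Cyp2c68. At chr4:115118060-115715557 all 10 genes were of the Cyp4a, Cyp4b and Cyp4x subfamilies. At chr7:25927546-27082541, 9 of 14 were Cyp2a, Cyp2b or Cyp2g genes, and at chr5:145294353-146674347, 8 of 22 were Cyp3a genes. Cyp2e1 was the remaining gene. Between 33 and 41 of the family lay in the domains under the other settings tried.

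Several other families lay in the domains as clusters. Of the clustered protocadherins 36 of 57 (63.2%) lay in the chromosome 18 domain and the other 21 outside LADs, while none of the 33 cadherins and other protocadherins was in a domain of 0.5 to 1.5 Mb and 17 were in longer LADs. Killer cell and C-type lectins, receptors of natural killer and myeloid cells such as Clec12b, Clec2g, Clec4a4 and Clec4b2, had 24 of 62 (38.7%) in the domains and 19 in longer LADs. Vomeronasal receptors had 110 of 354 (31.1%) in 12 domains and 199 (56.2%) in longer LADs. Olfactory receptors, the largest mouse gene family, had 109 of 1104 (9.87%) in 11 domains and 808 (73.2%) in longer LADs. Beta-defensins, antimicrobial peptides of epithelia, had 13 of the 71 defensin genes (18.3%) in the single domain chr8:18978148-20143143, with Defb14 the longest, and 41 in longer LADs. The lectin count was 10 with domains up to 100 kb apart joined and 43 with limits of 600 kb and 1.8 Mb. The defensin count was 0 and 52 under the same changes, and the olfactory count 235 under the second.

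Families with many neuronal genes had small counts, and differences between them were not tested. The channel lists were taken by symbol and hold accessory subunits as well as channels. Potassium channel genes had 15 of 92 (16.3%) in the domains, among them Kcnh7, Kcnb2, Kcnn2 and the accessory gene Kcnip4, and 10 in longer LADs. Sodium and calcium channels had 5 of 39 (12.8%) and 4 in longer LADs, with Scn2a and Scn3a, voltage-gated sodium channels of neurons, side by side at chr2:65434704-66097201 and Cacna1e and Cacna2d3 on chromosomes 1 and 14. Glutamate, GABA and glycine receptors had 5 of 43 (11.6%), including the glutamate receptor genes Grin2a and Grin2b and the glycine receptor gene Glra3, with 23 in longer LADs. Synaptic adhesion genes had 2 of 44, Dscam and Flrt3, with 29 in longer LADs. Axon guidance genes had 2 of 66, the ephrin receptors Ephb1 and Ephb6, with 12 in longer LADs.

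Developmental transcription factors had 13 of 159 (8.18%) in the domains, near the background, and 10 in longer LADs. The count was 8 with domains up to 100 kb apart joined, 8 with limits of 400 kb and 1.2 Mb and 18 with limits of 600 kb and 1.8 Mb. They included Pax9 at chr12:55907568-57187563, the neural tube factor Nkx2-2 with the sclerotome factor Pax1 at chr2:147066946-147724443, and Irx4, a ventricle-specific heart factor, as the only protein-coding gene of chr13:72715612-73290609. Collagens had 4 of 42 (9.52%), of which Col6a4, Col6a5 and Col6a6 shared chr9:105501251-106121248 and Col25a1 filled 73.0% of its domain on chromosome 3. Zinc finger genes (19 of 415), solute carriers (14 of 376, including Slc25a21 and Slc4a4), interferons and interleukins (5 of 104, including Il15 and Il7r) and taste and trace amine receptors (2 of 53) had shares of 3.72% to 4.81%, under the background. Proteases of the Mmp, Adam and Adamts families had 8 of 76 (10.5%), including Adamts3 and Adamts20.

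Some families had no gene or almost none in the domains. None of the 76 histone, 53 keratin or 46 proteasome genes was in a LAD of any length. None of 37 chemokines and 49 Fgf, Wnt and Bmp ligands was in a domain of 0.5 to 1.5 Mb, with 1 and 5 in longer LADs. Among 87 ribosomal proteins 1, Rpl39l, was in the domains. Serpins had none of 62 here but 22 in shorter and 13 in longer LADs, and adhesion G protein-coupled receptors none of 25 here. Of 20 genes active in fibroblasts or in most cells, among them Col1a1, Col1a2, Vim, Pdgfra, Actb and Gapdh, none was in a LAD of any length, where 77.2% of all autosomal protein-coding genes lay outside LADs. Of 24 marker genes of other lineages only Ptprc, the leukocyte antigen CD45, lay in a domain of 0.5 to 1.5 Mb, while 1 lay in a LAD of 200 to 500 kb, 2 in longer LADs and 20 outside.

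**Figure D5:**
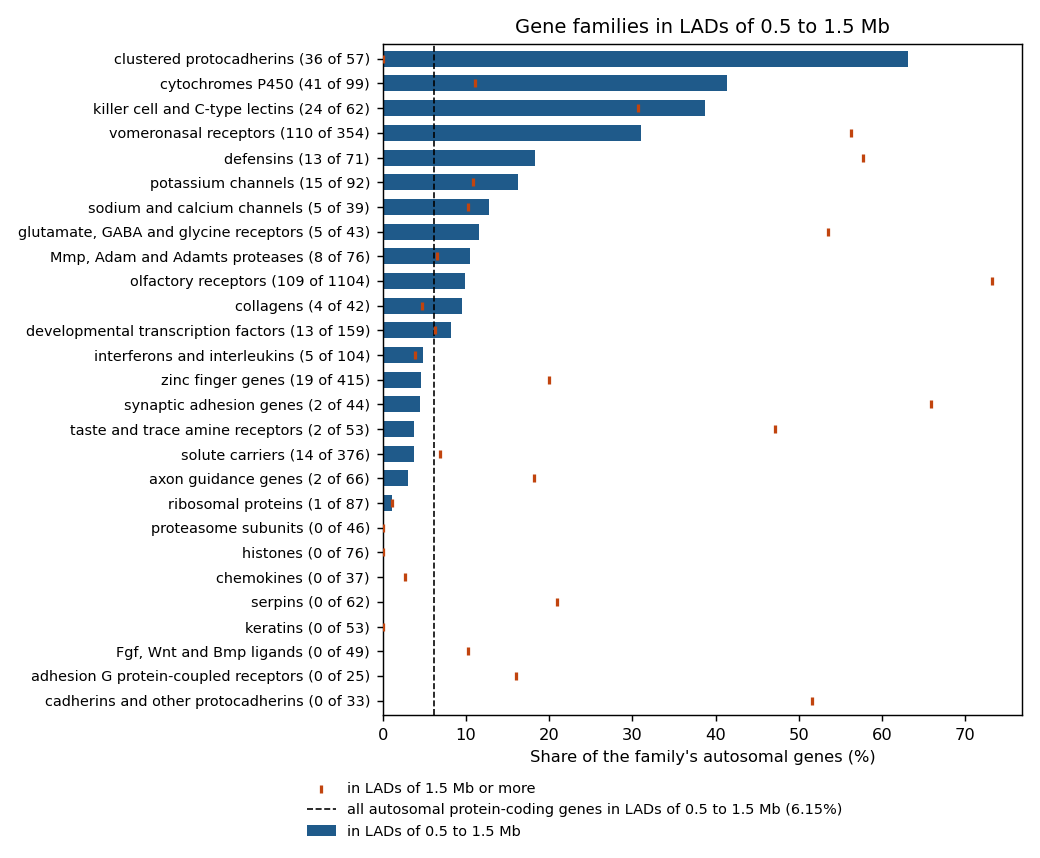
Share of each family's autosomal genes (x axis, %) in the LADs of 0.5 to 1.5 Mb (bars, with counts beside the names) and in LADs of 1.5 Mb or more (short vertical marks). The dashed line is the 6.15% of all autosomal protein-coding genes. Families were taken by gene symbol, so potassium channels include accessory subunits, and interferons and interleukins include receptors. Clustered protocadherins, cytochromes P450, lectins and vomeronasal receptors have the longest bars, and olfactory receptors and synaptic adhesion genes have their marks far to the right.

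Of the 52 domains without a protein-coding gene, 45 held at least 1 annotated long noncoding RNA gene, and 1 held no annotated gene of any kind. The longest were chr5:41884680-43207175 (1322.5 kb, 5 long noncoding RNA genes), chr16:7087146-8379640 (1292 kb), chr10:71410855-72635850 (1225 kb), chr16:50797007-52002002 (1205 kb) and chr16:77084424-78221919 (1137.5 kb). The second of these had 25.2% of its bases in Rbfox1, a neuronal splicing factor whose midpoint lies elsewhere, so a midpoint rule understates what such a domain contains. By overlap with any part of a protein-coding gene, 38 domains (12.4%) had none. The median domain had 27.2% of its bases in protein-coding genes (quartiles 5.67% and 49.0%).

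Long noncoding RNA genes numbered 1169 in the domains, 9.42% of those on autosomes, at 4.25 per Mb against 2.29 per Mb in longer LADs. Pseudogenes numbered 1026 (11.5%), at 3.73 per Mb against 3.83. Transfer RNA genes were rare, 9 of 391 (2.30%). Variable segments of antigen receptors numbered 113 of 394 (28.7%), at 0.411 per Mb, with 223 (56.6%) in longer LADs, at 0.282 per Mb. Of the 113, 82 lay in the T-cell receptor alpha region of chromosome 14 at chr14:52371156-53498651.

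MicroRNA genes had 123 of 1136, 10.8%, in 32 of the domains, at 0.447 per Mb against 0.0872 in longer LADs. A single domain, chr2:10427379-11317375, held 72 of the 123 (58.5%), the Mir466, Mir467, Mir669 and Mir297 genes packed within 51.6 kb in a domain whose protein-coding genes are the imprinted gene Sfmbt2 and the T-cell kinase gene Prkcq. Without that domain the share was 51 of 1064 genes, 4.79%. The Ndn domain at chr7:61369933-62354929 held 13 Mir344 genes, arms of 9 of which are shown above, spread over 402 kb with 18 different mature sequences and 11 seeds. In the chromosome 16 domain the genes for miR-99a, let-7c and miR-125b lay within 47.4 kb of each other, and the domain also held 5 long noncoding RNA genes. The genes for miR-181a and miR-181b, which act in lymphocyte development, spanned 0.264 kb of the 1427.5 kb Ptprc domain at chr1:136834568-138262063. A further 23 domains held 1 microRNA gene each, including Mir204 in the Trpm3 domain on chromosome 19.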

How the data were processed

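CUT&RUN was run on 7 libraries, and 1 merged list of Lamin B1 domains was analysed. The submitters' processing notes name Bowtie2 and mm10, with no role or order. The domain caller, its threshold and any use of IgG or of the E. coli spike-in, which the labels' protocols record for Lamin B1 and IgG, are not given in the sources used here. The deposited values are domain starts and ends in bp, and the deposited score is 0 in every line. Members, gene lists and tests were chosen with earlier results of these data known.

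Genes came from the RefSeq table of GRCm38.p6, the build mm10 corresponds to, and were placed by midpoint. Strand and promoter windows came from the RefSeq promoter table, in which no chromosome 18 entry was found, and microRNAs from the RefSeq microRNA table (45 of 123 genes matched, 73 mature sequences). Of the genes in the domains 77.9% had a promoter entry, and 82.2% off chromosome 18. Density was genes per Mb by chromosome, and gene length the median of log2 length. The 5 tested differences were taken within chromosomes and tested with exact two-sided sign-flip permutation, adjusted by the Benjamini-Hochberg method with a threshold of 0.05. A sixth, of GC content, needs a genome and was not run. The tests were tested on simulated data. Domains named were the 5 with the most genes, the 5 with the largest share in 1 gene, the 5 longest without a gene, the 2 nearest each side of each limit, the holder of a lineage marker, and those with cytochrome P450, microRNA or V-segment clusters, the last chosen after their values were seen. Genes named were up to 4 per family by length, with others chosen after their values were seen. Software was Python 3.11.15 with numpy 2.4.6, pandas 2.3.3, scipy 1.17.1 and matplotlib 3.10.9. Coordinates count from 1.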

Additional observations from a re-analysis of the deposited data

How the results depend on the processing

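The lower gene density than in the gaps passed under each of the 7 other settings tried for it. The excess over LADs of 1.5 Mb or more kept its direction under each of 8 and passed under 3: 3.49 genes per Mb with all annotated genes, 1.62 without olfactory and vomeronasal receptors and 1.57 with limits of 400 kb and 1.2 Mb. Against LADs of 200 to 500 kb the sign changed to 0.60 with whole genes inside, 0.0942 with genes placed by their start, 0.49 with all annotated genes and 0.99 with limits of 400 kb and 1.2 Mb. With limits of 600 kb and 1.8 Mb, log2 gene length changed sign to -0.0815 and promoter CG to -0.0418; promoter CG was -0.00449 without receptors. The cause of these changes was not tested. The share of domains without a gene was 12.4% by any overlap, 0.327% with all annotated genes and 26.1% with whole genes inside. The share of genes in the domains was 5.57% with whole genes inside, 5.50% with domains up to 100 kb apart joined and 7.85% with limits of 600 kb and 1.8 Mb. After joining, 268 domains met the limits, 216 of them unchanged. No paired analysis was possible because the list is a single merged one. Leaving out a replicate and a stricter threshold were not run, since the list gives no values of single libraries and no score. Depth is unknown.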

Other observations

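On the X chromosome 47 of 160 domains were 0.5 to 1.5 Mb long, with 3.51 protein-coding genes per Mb, and 14.9% of them held no protein-coding gene. On the Y chromosome 24 of 149 had this length, with 3.30 genes per Mb. Both densities lie between the lowest and the highest autosome, 2.35 and 7.70 genes per Mb.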
